A study of Mus musculus with 24 samples.

Results

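The genes described were 10 regulators of the cell division cycle in mouse cells: the D cyclins Ccnd1, Ccnd2 and Ccnd3, the E cyclins Ccne1 and Ccne2, the mitotic and S phase cyclins Ccna2 and Ccnb1, and the inhibitors of cyclin-dependent kinases (CDKs) Cdkn1a, Cdkn1b and Cdkn2a. They were taken by name from RNAseq tables of 21909 gene symbols, and 10 of 10 were found. The study mapped the nucleolus associated domains (NADs) of embryonic stem cells (ESCs) and of neural progenitor cells (NPCs) derived from them, and measured polyadenylated RNA in 3 samples of each cell type, whose RNA came from separate culture dishes. The ESCs were of the line E14, grown on gelatin without feeders in 2i medium with LIF at 1000 U/ml, the GSK3β inhibitor CHIR99021 at 3 µM and the MEK inhibitor PD0325901 at 1 µM. The NPCs were made from ESCs as floating embryoid bodies in medium with 10% fetal calf serum over 8 days, with retinoic acid at 2 µM during the last 4 days. Medium, time in culture and cell type changed together and the labels name no batch shared by both groups, so these cannot be told apart.

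Cyclins are the activating subunits of CDKs. D cyclins pair with Cdk4 and Cdk6 in G1 and phosphorylate the retinoblastoma proteins, E cyclins pair with Cdk2 at the entry into S phase, cyclin A acts in S phase and G2, and cyclin B drives Cdk1 into mitosis. The inhibitors of the Cip/Kip family, among them Cdkn1a and Cdkn1b, bind cyclin and CDK together, whereas those of the INK4 family bind Cdk4 and Cdk6. Mouse ESCs are known for a short G1 phase, which lengthens as neural cells form.

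Levels were deposited as RPKM, reads per kilobase scaled to the depth of the library. The lowest values of each sample step by whole reads, which gave the depth and the length used. Of 18188 genes with a value above 0 and an annotated span, 17172 (94.4%) came out at whole reads in all 6 samples, within 0.05 of a read, when the length was the span of the gene from start to end with its introns. With the summed exons as length only 3.45% did. The depth that the samples were scaled to lay between 27262786 and 34051992 reads, of which 24999963 to 31258597 were recovered in genes. The span was 1.12 times the exon length in Cdkn1b and 17.2 times in Cdkn2a. RPKM can thus be set side by side for 1 gene between samples. Where reads come from exons, it understates genes with long introns against others. Where levels of different genes are compared, they are therefore also given per kilobase of exon, a scale chosen after seeing the data. Whether reads were counted in exons alone or over the whole span was not tested. If intron reads were counted, the exon scale overstates genes with long introns.

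ESC replicate 3 stood apart from the other ESC samples. Across genes, its log2(RPKM + 1) had a correlation of 0.963 and 0.966 with ESC replicates 1 and 2, against 0.999 between these and 0.996 to 0.999 among the NPC samples. In the genes with at most 2662 bases of exons it lay above the other ESC samples by a median of 0.40 on the log2 scale, and in those with at least 6289 bases it was shifted by -0.34. Among the NPC samples these medians lay between -0.01 and 0.01. The members showed the shift to different degrees. On the log2 scale, RPKM of ESC replicate 3 over the mean of ESC replicates 1 and 2 was 0.98 for Cdkn2a, which has the shortest exons of the 10 genes (1172 bases), and 0.31 for Ccne1. It was -1.54 for Ccnd2, -0.84 for Ccnd1, -0.46 for Ccnd3 and -0.45 for Cdkn1b. For Ccne2, Ccna2, Ccnb1 and Cdkn1a it lay between -0.07 and 0.03. What set this library apart was not tested. The differences of the members by RPKM are given with and without it. Values on other scales, such as TPM, per kilobase of exon or on the recovered reads, always include it.

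The labels were checked against marker genes. In the comparison described below, 36.9% of all tested genes were higher in NPCs and 33.3% lower. In TPM these were 3521 and 1585 of 7835 genes, and on the recovered reads 6356 and 3845 of 13744. Of 8 pluripotency markers 8 fell in NPCs, their summed level was 516, 517 and 550 RPKM in ESC replicates 1 to 3 and 8.98, 10.6 and 12.1 RPKM in NPC replicates 1 to 3, and Dppa3 was at 0 in each NPC sample. Pou5f1, the most abundant of them in ESCs, had 156 ± 40.1 RPKM in ESCs and 0.0532 ± 0.0135 in NPCs (SD, n = 3 each), Nanog 98.1 ± 3.04 and 0.0541 ± 0.0244, and Zfp42 40.9 ± 2.92 and 0.0137 ± 0.00685. Of 7 neural progenitor markers 6 were tested and 5 rose, and their sum was 40.0, 41.4 and 49.8 RPKM in ESCs and 87.0, 93.0 and 96.7 RPKM in NPCs. Vim was the most abundant, with 90.4% of the sum in ESCs, and was not called (0.21, limma, adjusted p = 0.204). It was called without ESC replicate 3 (0.32, adjusted p = 0.00208). Hes5 was at 0 in each ESC sample. Nes rose from 3.46 ± 0.292 to 30.6 ± 1.79 RPKM, Pax6 from 0.0115 ± 0.00626 to 1.55 ± 0.123 and Sox1 from 0.440 ± 0.0841 to 1.40 ± 0.363 (SD, n = 3 each). Of 7 markers of mesoderm and endoderm 5 were tested, which passed the filter only through the NPC samples and so had to be higher there. The list had sums of 1.15, 1.22 and 1.07 RPKM in ESCs and 17.5, 18.9 and 18.1 RPKM in NPCs. Gata6 was the most abundant of these in NPCs, at 6.69 ± 0.337 RPKM, and T, the most abundant in ESCs, was under the filter. On the recovered reads 5 of these markers were tested, 4 were higher in NPCs and 1, T, was lower (-6.08, limma voom, adjusted p = 2.31e-06). Of 7 neuron markers 2 were tested and 2 fell, Tubb3 from 7.28 ± 0.763 to 4.15 ± 0.508 RPKM and Stmn2, with sums of 11.1, 12.2 and 14.5 RPKM in ESCs and 7.03, 5.68 and 6.76 RPKM in NPCs. In TPM 1 of these 2 was lower and 1 was not called. Tubb3 was the most abundant neuron marker in both cell types, and Dcx was at 0 in each ESC sample. On the recovered reads, which let all 7 neuron markers be tested, 5 were higher and 2 lower in NPCs. Of the tested markers, 6 for pluripotency and Stmn2 passed the filter only through the ESC samples, and 4 for neural progenitors (Pax6, Sox1, Hes5 and Sox3) only through the NPC samples, so their directions were set by the filter.

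The part of other germ layers in the values of the members was not tested. In these bulk samples, fewer cells that express a gene and less RNA per cell cannot be told apart.

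Expression was compared between NPCs and ESCs with limma on log2(RPKM + 1) over the 7835 genes with at least 1 RPKM in at least 3 samples, called at a Benjamini-Hochberg adjusted p under 0.05. Of the 10 genes 10 passed the filter, but Ccnd2 did so only through the NPC samples and Cdkn2a only through the ESC samples, and such genes had to differ. Called were 8 of 10, beside 70.2% of all genes tested, so the share is close to the background and says little about these genes. Ccnd2 and Cdkn1b were higher in NPCs, 2 of 10 beside 36.9% of all genes. Ccnd1, Ccne1, Ccna2, Ccnb1, Cdkn1a and Cdkn2a were lower, 6 of 10 beside 33.3%. A difference of at least 1 on the log2 scale was reached by 5 of 10 (Ccnd2, Ccne1, Ccnb1, Cdkn1a and Cdkn2a), beside 28.7%. The median difference of the 10 was -0.77 and that of all genes tested 0.02. Without ESC replicate 3, Ccnd3 was called too, 9 of 10 beside 87.9%. On the recovered reads (limma voom, chosen after seeing the data) 8 of 10 were called, beside 74.2% of 13744 genes.

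The scaling of the samples mattered for some of these calls. RPKM summed to 104016, 105859 and 139988 in ESC replicates 1 to 3 and to between 85295 and 86521 in the NPC samples. The rescaled fits all included ESC replicate 3, and its part in their shifts was not tested. Rescaling each sample to the same sum (TPM) shifted the median of all tested genes by 0.43 and raised the share of higher among all calls from 52.6% to 69.0%. On that scale Ccnd1 (-0.58, adjusted p = 0.182) and Ccna2 (-0.21, adjusted p = 0.248) were no longer called by limma and Ccnd3 was (0.73, adjusted p = 0.0396). Centring on the median shifted all genes by -0.12 on the log2 scale, and quantile normalization moved the difference of a gene by a median of -0.10. Per kilobase of exon and on the reads the median over tested genes was higher by 0.19 and 0.37, but over 11112 and 13744 genes, and for the 7170 and 7171 genes shared with the fit of RPKM the median change was 0.00 and 0.01. The direction of 9 genes was the same on every scale tried, and that of Ccne2, not called on any, was not.

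**Figure D1:**
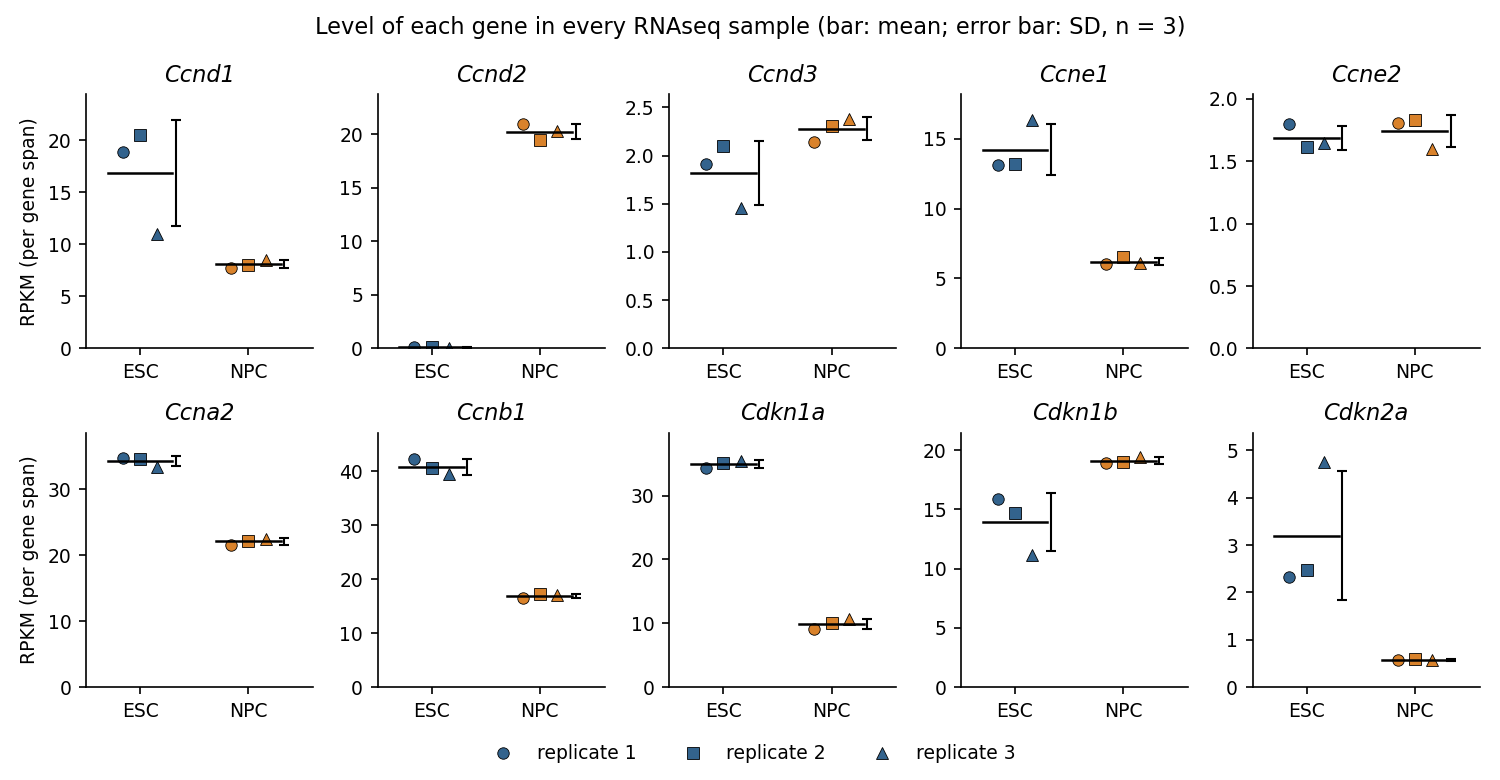
RPKM per gene span (y axis, from 0, own range in each panel) of each gene in the 3 ESC and the 3 NPC samples; symbols are the replicates, horizontal bars the means and error bars the SD (n = 3). Ccnd2 lies below 0.17 RPKM in ESCs and above 19 in NPCs, and ESC replicate 3 is apart from the other ESC samples in Ccnd1, Ccnd2, Ccnd3, Ccne1, Cdkn1b and Cdkn2a.

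Ccnd1, the D cyclin that growth factor signals are best known to induce, lies on chromosome 7 (144929931 to 144939925 of GRCm38, minus strand). It had 18.9, 20.5 and 11 RPKM in ESC replicates 1, 2 and 3 and 7.76, 7.98 and 8.50 RPKM in NPC replicates 1, 2 and 3. ESC replicate 3 was far below the other ESC samples but still above each NPC sample, so the groups did not overlap. Mean levels were 16.8 ± 5.10 RPKM in ESCs and 8.08 ± 0.381 in NPCs (SD, n = 3 each), 2.08 times higher in ESCs. The difference on the log2(RPKM + 1) scale was -0.93 (95% interval -1.47 to -0.39, limma, Benjamini-Hochberg adjusted p = 0.00975, lower in 3 of 3 NPC samples). Without ESC replicate 3 it was -1.19 (adjusted p = 8.65e-07).

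Ccnd2, a D cyclin known for its part in the division of neural progenitors, lies on chromosome 6 (127125162 to 127152193, minus strand). Its level was 0.164, 0.136 and 0.0517 RPKM in the ESC replicates and 20.9, 19.5 and 20.3 RPKM in the NPC replicates. These values rest on 151, 124 and 43 reads in ESCs and on 17024, 14345 and 17716 reads in NPCs. It was close to absent in the ESC libraries, lowest in replicate 3, and of similar height in the NPC libraries, with a wide gap between the groups. The mean level in NPCs was 172 times that in ESCs, or 135 times that of ESC replicates 1 and 2 alone. On the log2(RPKM + 1) scale, which understates changes from such low levels, the difference was 4.25 (95% interval 4.06 to 4.44, limma, adjusted p = 1.86e-07, higher in 3 of 3 NPC samples), the largest rise among the 10 genes. Without ESC replicate 3 it was 4.20 (adjusted p = 1.34e-09), and in TPM 6.88. With a pseudocount of 0.1 it was 6.59, and on the recovered reads 7.56 (95% interval 6.67 to 8.46, limma voom, adjusted p = 3.52e-06).

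Ccnd3, the third D cyclin, lies on chromosome 17 (47505051 to 47599691, plus strand) and has the longest span of the 10 genes, 94641 bases with 8775 bases of exons. Its level was 1.91, 2.1 and 1.45 RPKM in the ESC replicates and 2.14, 2.31 and 2.38 RPKM in the NPC replicates. The highest ESC sample, replicate 2, lay just under the lowest NPC sample, replicate 1. The difference on the log2(RPKM + 1) scale was 0.22 (95% interval -0.02 to 0.47) and was not called (limma, adjusted p = 0.0883, higher in 3 of 3 NPC samples). It was called without ESC replicate 2 (0.29, adjusted p = 0.0484) and without ESC replicate 3 (0.13, adjusted p = 0.0395). It was 0.73 in TPM, 0.11 after median centring and 0.06 after quantile normalization, so its size differed between these settings. Rescaling to TPM also lessens the weight of the added 1, and with a pseudocount of 0.1 on RPKM the difference was 0.32. Its low RPKM came with many reads, 4229 to 6698 in ESCs and 5957 to 7261 in NPCs, since the long introns enter the length.

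Exons of these genes overlap exons of genes on the opposite strand, LTO1 at Ccnd1, 9330179D12Rik and Gm43126 at Ccnd2 and Bysl at Ccnd3. The paper names a stranded library kit and the sample labels a non-stranded one. Whether the reads were counted by strand is not given in the sources used here, so reads of the overlaps cannot be told apart. Ccnd3 also has a processed pseudogene on chromosome 4, Ccnd3-ps, and how reads that map to both were counted is not given either.

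The D cyclins were next set against each other as percent of their summed level in each sample. By the deposited RPKM, Ccnd1 made up 90.1%, 90.2% and 88.0% of the D cyclins in the ESC replicates and 25.2%, 26.8% and 27.3% in the NPC replicates. Ccnd2 made up 0.782%, 0.597% and 0.413% in ESCs and 67.8%, 65.4% and 65.1% in NPCs. For Ccnd3 the shares were 9.09%, 9.21% and 11.6% in ESCs and 6.96%, 7.76% and 7.62% in NPCs. The share of Ccnd2 was thus low in each ESC sample and the largest in each NPC sample, and none of the 3 shares overlapped between the cell types. The differences were -63.0 percentage points for Ccnd1, 65.5 for Ccnd2 and -2.52 for Ccnd3. Each had p = 0.10 in a two-sided exact permutation test over samples, the smallest that 3 against 3 allow, and an adjusted p of 0.10 over the 5 shares tested.

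Which D cyclin came out highest depended on the length used. Per kilobase of exon, Ccnd1 had 63.6% ± 3.40 of the D cyclins in ESCs and 17.2% ± 0.594 in NPCs, Ccnd2 0.579% ± 0.196 and 58.2% ± 1.77, and Ccnd3 35.9% ± 3.58 and 24.6% ± 1.22 (SD, n = 3 each). Per kilobase of the principal transcript, also chosen after seeing the data, Ccnd3 was the largest in ESCs with 64.7% ± 3.47 against 34.9% ± 3.34 for Ccnd1, and in NPCs with 48.6% ± 1.69 against 41.2% ± 1.87 for Ccnd2. On all 3 length scales the share of Ccnd2 was higher and those of Ccnd1 and Ccnd3 lower in NPCs. Without ESC replicate 3 the differences by RPKM were -63.7 points for Ccnd1, 65.4 for Ccnd2 and -1.71 for Ccnd3, with an exact permutation p of 0.20 each, the smallest that 2 against 3 allow here.

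**Figure D2:**
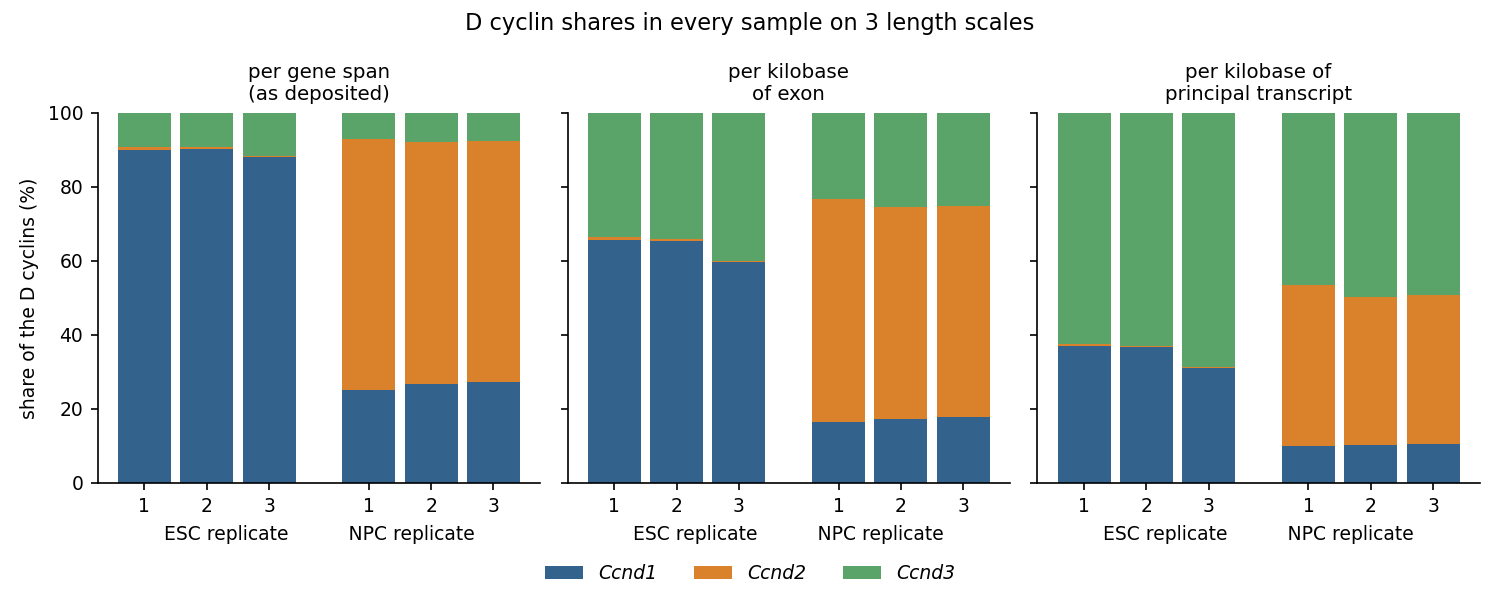
Share of Ccnd1, Ccnd2 and Ccnd3 in their summed level (y axis, percent) in each ESC and NPC sample (x axis, replicate number), with levels per gene span as deposited, per kilobase of exon and per kilobase of the principal transcript. Ccnd2 rises from under 1% in each ESC sample on all 3 scales, whereas the gene with the largest share in ESCs is Ccnd1 on the scales of gene span and exons and Ccnd3 on that of the principal transcript.

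Ccne1, which activates Cdk2 at the start of S phase, lies on chromosome 7 (38097984 to 38107534, minus strand). It had 13.1, 13.2 and 16.3 RPKM in the ESC replicates and 6.01, 6.51 and 6.09 RPKM in the NPC replicates. Replicate 3 was the highest ESC sample, and each ESC sample was at least double any NPC sample. The mean level was 14.2 ± 1.82 RPKM in ESCs and 6.20 ± 0.268 in NPCs (SD, n = 3 each), and the difference -1.07 on the log2(RPKM + 1) scale (95% interval -1.34 to -0.81, limma, adjusted p = 0.000165, lower in 3 of 3 NPC samples). Without ESC replicate 3 it was -0.98 (adjusted p = 8.57e-07).

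Ccne2, the other E cyclin, lies on chromosome 4 (11191351 to 11204779, plus strand) and was not called. Its level was 1.80, 1.61 and 1.64 RPKM in the ESC replicates and 1.81, 1.83 and 1.6 RPKM in the NPC replicates. The groups overlapped, with NPC replicate 3 below every ESC sample. The difference was 0.03 on the log2(RPKM + 1) scale, with a 95% interval of -0.12 to 0.19 (limma, adjusted p = 0.676), and turned to -0.08 after median centring and to -0.18 after quantile normalization, neither of them called. In TPM it was 0.45 (adjusted p = 0.056). Part of an exon lies opposite an exon of Ints8, a subunit of the Integrator complex.

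Ccne1 made up 88.0%, 89.1% and 90.9% of the summed RPKM of both E cyclins in the ESC replicates and 76.9%, 78.1% and 79.2% in the NPC replicates. It was the larger in every sample, and its share was lower in each NPC than in each ESC sample. The difference was -11.3 percentage points (exact permutation test, p = 0.10, adjusted p = 0.10), -10.5 points without ESC replicate 3 and -11.8 points per kilobase of exon.

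Ccna2, the cyclin A of dividing somatic cells, lies on chromosome 3 (36564865 to 36572150, minus strand). It had 34.8, 34.6 and 33.3 RPKM in the ESC replicates and 21.5, 22.2 and 22.5 RPKM in the NPC replicates. Both groups were tight and far apart, and ESC replicate 3 was close to the others. The level was 1.55 times higher in ESCs (34.2 ± 0.772 against 22.1 ± 0.484 RPKM, SD, n = 3 each) and the difference on the log2(RPKM + 1) scale -0.61 (95% interval -0.83 to -0.40, limma, adjusted p = 0.00095, lower in 3 of 3 NPC samples). This call rested on the scaling, since it was lost in TPM and after quantile normalization (-0.25, adjusted p = 0.145). An exon of Ccna2 overlaps one of Exosc9, an exosome subunit gene on the opposite strand.

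Ccnb1, the cyclin that takes Cdk1 into mitosis, lies on chromosome 13 (100778650 to 100786570, minus strand). Its level was 42.3, 40.6 and 39.5 RPKM in the ESC replicates and 16.5, 17.2 and 17.1 RPKM in the NPC replicates. Each ESC sample had more than double the level of any NPC sample. The mean level was 2.41 times higher in ESCs and the difference -1.22 on the log2(RPKM + 1) scale (95% interval -1.44 to -1, limma, adjusted p = 3.28e-05, lower in 3 of 3 NPC samples), or -1.24 without ESC replicate 3. In TPM the difference was -0.84 and after quantile normalization -0.87, called on both. A processed pseudogene, Ccnb1-ps on chromosome 7, may share reads with it, and its part was not tested.

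Cdkn1a, the Cip/Kip inhibitor best known as a target of the p53 protein, lies on chromosome 17 (29090976 to 29100727, plus strand). It had 34.2, 35.2 and 35.4 RPKM in the ESC replicates and 9.12, 10.0 and 10.7 RPKM in the NPC replicates. The ESC samples differed little among themselves, replicate 3 included, and each lay far above the NPC samples. The mean level was 34.9 ± 0.619 RPKM in ESCs and 9.95 ± 0.786 in NPCs (SD, n = 3 each), 3.51 times higher in ESCs. The difference on the log2(RPKM + 1) scale was -1.72 (95% interval -1.95 to -1.49, limma, adjusted p = 7.7e-06, lower in 3 of 3 NPC samples), the largest fall among the 10 genes on that scale. Part of an exon, 261 bases, lies opposite an exon of AC167363.2. The difference was -1.71 without ESC replicate 3, and -1.38 in TPM, the value nearest 0 among the settings tried.

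Cdkn1b, the Cip/Kip inhibitor that holds cyclin E and Cdk2 in check in quiescent cells, lies on chromosome 6 (134920401 to 134925513, plus strand). Its level was 15.9, 14.7 and 11.2 RPKM in the ESC replicates and 18.9, 19.0 and 19.5 RPKM in the NPC replicates. The NPC samples were close together and above each ESC sample, of which replicate 3 was the lowest. The mean level was 1.37 times higher in NPCs, or 1.25 times that of ESC replicates 1 and 2 alone. The difference on the log2(RPKM + 1) scale was 0.45 (95% interval 0.11 to 0.78, limma, adjusted p = 0.0263, higher in 3 of 3 NPC samples), and 0.31 without ESC replicate 3 (adjusted p = 0.00072). In TPM the difference was 0.89 and after quantile normalization 0.69. The call was lost after median centring (0.33, adjusted p = 0.0513) and when NPC replicate 1, 2 or 3 was left out (0.43 to 0.45, adjusted p = 0.0728, 0.078 and 0.0843).

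Within the Cip/Kip pair, Cdkn1a made up 68.3%, 70.5% and 76.0% of the summed RPKM in the ESC replicates and 32.6%, 34.5% and 35.4% in the NPC replicates. Cdkn1a was the larger in every ESC sample and Cdkn1b in every NPC sample by this measure, which leaves out Cdkn1c, the third gene of the family and in NPCs the highest of them (95 RPKM). The difference in share was -37.4 percentage points (exact permutation test, p = 0.10, adjusted p = 0.10), and -35.2 points without ESC replicate 3. Per kilobase of exon the share of Cdkn1a was 86.0% ± 2.32 in ESCs and 55.9% ± 1.61 in NPCs (SD, n = 3 each), so that on this scale it stayed the larger in NPCs too. Per kilobase of the principal transcript it was 91.3% ± 1.52 and 68.4% ± 1.42. The fall in its share was found on all 3 scales, and Cdkn1b was the larger in NPCs only by gene span.

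Cdkn2a, which encodes the INK4a inhibitor of Cdk4 and Cdk6 and, from another promoter and reading frame, the ARF protein that acts on Mdm2, lies on chromosome 4 (89274471 to 89294653, minus strand). It had 2.33, 2.48 and 4.76 RPKM in the ESC replicates and 0.564, 0.587 and 0.572 RPKM in the NPC replicates. Values per gene do not tell INK4a and ARF transcripts apart. ESC replicate 3 was about double the other ESC samples, and each ESC sample lay far above the NPC samples, which were nearly equal. The mean level was 3.19 ± 1.36 RPKM in ESCs and 0.574 ± 0.0118 in NPCs (SD, n = 3 each), 5.56 times higher in ESCs, or 4.19 times with ESC replicates 1 and 2 alone. The difference on the log2(RPKM + 1) scale was -1.37 (95% interval -1.87 to -0.87, limma, adjusted p = 0.00117, lower in 3 of 3 NPC samples) and -1.11 without ESC replicate 3 (adjusted p = 7.23e-08). On the recovered reads, 1604, 1687 and 2958 in ESCs and 343, 323 and 373 in NPCs, it was -2.40 (limma voom, adjusted p = 0.000234), a larger fall than that of Cdkn1a on the same scale (-1.81). With a pseudocount of 0.1 the difference of Cdkn2a was -2.21.

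**Figure D3:**
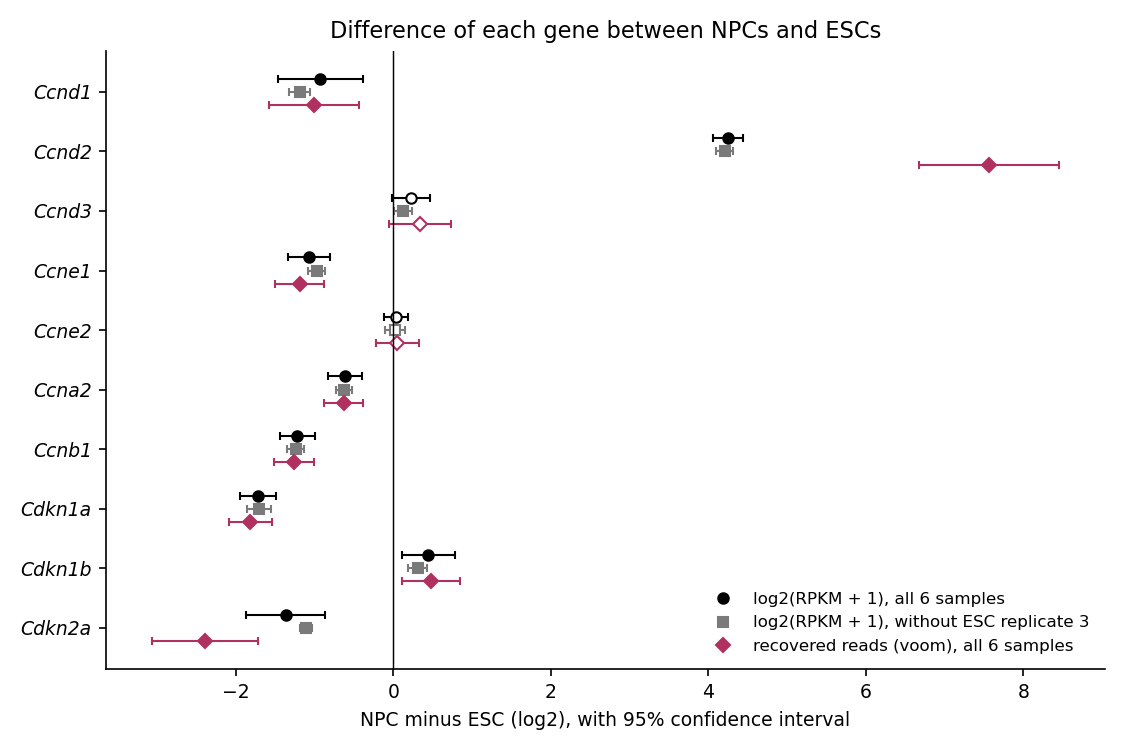
NPC minus ESC difference of each gene (x axis, log2, with 95% confidence interval) from limma on log2(RPKM + 1) with all 6 samples, from the same fit without ESC replicate 3 and from limma voom on the recovered reads; filled symbols are called at an adjusted p under 0.05. Ccnd2 has the largest rise in each fit (4.25, 4.20 and 7.56), and Ccnd3 is called only in the fit without ESC replicate 3.

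The order of the levels also changed with the cell type. By deposited RPKM, Ccnb1 was the highest of the 10 genes in ESCs (40.8 ± 1.44), followed by Cdkn1a (34.9 ± 0.619) and Ccna2 (34.2 ± 0.772, SD, n = 3 each), whose ranges overlapped. Then came Ccnd1, Ccne1 and Cdkn1b with 16.8, 14.2 and 13.9 RPKM, neighbours whose ranges overlapped, and Cdkn2a, Ccnd3, Ccne2 and Ccnd2 with 3.19, 1.82, 1.68 and 0.117 RPKM, of which Ccnd3 and Ccne2 overlapped. In NPCs the order was Ccna2 (22.1 ± 0.484), Ccnd2 (20.2 ± 0.714), Cdkn1b (19.1 ± 0.304), Ccnb1 (16.9 ± 0.395), Cdkn1a, Ccnd1, Ccne1, Ccnd3, Ccne2 and Cdkn2a, in which no neighbours overlapped. Ccnd2 thus went from the lowest place to the second.

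Per kilobase of exon, which leaves introns out of the length but not any intron reads out of the count, the order differed. Cdkn1a was the highest in ESCs at 95.8 ± 1.70, before Ccnb1 at 76.6 ± 2.71 and Ccna2 at 61.1 ± 1.38 reads per kilobase of exon, scaled to depth (SD, n = 3 each). Cdkn2a came next at 55.0 ± 23.5, with a range of 40.2 to 82.0 that overlapped those of Ccnb1, Ccna2, Ccne1 and Ccnd1, so its place is uncertain. In NPCs Ccnd2 was the highest at 58.1 ± 2.05, before Ccna2 at 39.4 ± 0.863 and Ccnb1 at 31.8 ± 0.742. This place rested on the length used. Per kilobase of the principal transcript, Ccnd3 was above Ccnd2 in NPCs, with 48.6% against 41.2% of the D cyclins. Cdkn1a, Ccnd3, Ccne1 and Cdkn1b followed between 27.3 and 21.5, with neighbours among these overlapping. Ccne2 was the lowest in NPCs and Ccnd2 the lowest in ESCs, at 6.71 ± 0.492 and 0.337 ± 0.168.

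Genes that work with the members were read from lists of their pathway. Their counts of calls stand beside 36.9% of all tested genes higher and 33.3% lower, and in TPM beside 3521 and 1585 of 7835. On the recovered reads they stand beside 6356 higher and 3845 lower of 13744, and without ESC replicate 3 beside 3437 and 3447 of 7835. After quantile normalization 2670 of 7835 were higher and 2991 lower. Without NPC replicate 1, 2 or 3, 2517 to 2558 were higher and 2093 to 2099 lower. Of 5 CDKs, the kinases that cyclins activate, 4 were tested, 3 were lower in NPCs and none higher, with a median of -0.38, and in TPM none was lower and 1 higher, with a median of -0.04. The list lay below the median of all tested genes on both scales, which was 0.02 and, in TPM, 0.45. Cdk2, the partner of the E and A cyclins, fell from 28.0 ± 2.59 to 16.0 ± 0.125 RPKM (difference -0.77 on the log2 scale, limma, adjusted p = 0.000637), and Cdk1, the partner of Ccnb1, from 11.4 ± 1.74 to 8.15 ± 0.187 (-0.43, adjusted p = 0.0161). The call of Cdk1 was lost without NPC replicate 1, 2 or 3 (-0.41, -0.44 and -0.42, adjusted p = 0.0589, 0.0515 and 0.0591). Cdk4, the partner of the D cyclins, had 138 ± 13.8 RPKM in ESCs and 159 ± 6.00 in NPCs, a difference of 0.21 that was not called (limma, adjusted p = 0.207). It was called without ESC replicate 3 (0.29, adjusted p = 0.00178), in TPM (0.64, adjusted p = 0.00156) and after quantile normalization (0.87, adjusted p = 0.000385). Cdk6 was under the filter, at 0.408 ± 0.137 and 0.510 ± 0.00896 RPKM, and was not called on the reads (0.39, limma voom, adjusted p = 0.226). The differences of these kinases were all smaller than that of Ccnd2 on the same scale.

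Of 4 other CDK inhibitors 2 were tested and 1 rose. This was Cdkn1c, the imprinted member of the Cip/Kip family, with 0.608 ± 0.346 RPKM in ESCs and 95 ± 6.74 in NPCs (SD, n = 3 each; 5.92 on the log2(RPKM + 1) scale, limma, adjusted p = 3.36e-07, higher in 3 of 3 NPC samples). Cdkn2d, of the INK4 family, was not called (-0.24, adjusted p = 0.218). Cdkn2b, the neighbour of Cdkn2a, was under the filter at 1.03 ± 0.249 and 0.510 ± 0.157 RPKM, and on the reads it was lower in NPCs as Cdkn2a was (-1.02, limma voom, adjusted p = 0.0125). Cdkn2c was higher on the reads (0.62, adjusted p = 0.0173). The INK4 genes thus did not move as 1 group.

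Of 7 cyclins outside the 10 genes 5 were tested, 1 was higher and 3 lower, with a median of -0.32, and in TPM 1 was higher and 2 lower, with a median of 0.10, below that of all tested genes on both scales. Ccng2, linked to cell cycle exit, rose from 1.31 ± 0.224 to 11.6 ± 1.06 RPKM (2.45, limma, adjusted p = 2.75e-06), and Ccnf (-1.24) and Ccnb2 (-0.70), which like Ccnb1 act in G2 and mitosis, were lower. Of 13 retinoblastoma and E2F genes, which act below the D cyclins, 8 were tested, 3 were higher and 3 lower, with a median of 0.10, and without ESC replicate 3 these were 4 and 4 with a median of -0.10. In TPM 4 were higher and 1 lower, with a median of 0.60 beside 0.45 for all tested genes. On the reads, beside 6356 and 3845 of 13744 tested genes, 6 of 13 were higher and 3 lower. Among them E2f4 (-1.16) and E2f1 (-0.59) had the largest falls and E2f6 (0.92) and Tfdp2 (0.84) the largest rises. Tfdp1 (-0.58) was close to E2f1 and fell more than it without ESC replicate 3 (-0.73 against -0.50). Rb1, Rbl1 and Rbl2, which D cyclins and CDKs phosphorylate, were under the filter with at most 0.828 RPKM on average, and on the reads Rb1 (1.61, limma voom, adjusted p = 0.000655) and Rbl2 (0.95, adjusted p = 0.0352) were higher and Rbl1 was not called (0.16, adjusted p = 0.602).

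Of 7 phosphatases, kinases and Cks genes that act on CDKs directly, 1 was higher and 3 lower, with a median of -0.24, and in TPM 1 was higher and 1 lower, with a median of 0.15, below that of all tested genes on both scales. Cdc25b, a phosphatase that activates CDKs, rose by 1.16 on the log2 scale, whereas Cks2 (-1.01) and Pkmyt1 (-0.67) were lower. Of 10 genes for the turnover of cyclins and inhibitors 8 were tested. Of these 1 was higher and 6 lower, beside 36.9% and 33.3% of all tested genes, with a median of -0.68 beside 0.02. In TPM 2 were higher and 5 lower, with a median of -0.45 beside 0.45. The one that rose was Skp2, which takes Cdkn1b to degradation, from 1.28 ± 0.330 to 2.67 ± 0.0148 RPKM (0.70, limma, adjusted p = 0.00165), while Ube2c (-1.09) and Fbxo5 (-0.97) fell most. Cdkn1b and Skp2 were thus both higher in NPCs.

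Of 14 genes of replication and proliferation 1 was higher and 12 lower, beside 36.9% and 33.3% of all tested genes. The median was -0.85 beside 0.02 for all tested genes. In TPM 1 was higher and 7 lower, with a median of -0.45 beside 0.45. Pcna, the replication clamp that Cdkn1a binds, fell from 86.1 ± 9.86 to 43.9 ± 1.89 RPKM (-0.95, limma, adjusted p = 0.000606), and Mcm5 (-1.35) and Mcm3 (-1.09) fell most. Mki67, a marker of cycling cells, rose from 11.5 ± 5.11 to 25.4 ± 1.17 RPKM (1.18, adjusted p = 0.0182). The difference of Mki67 was 0.77 without ESC replicate 3 (adjusted p = 1.04e-05), and without NPC replicate 1, 2 or 3 it was 1.19, 1.14 and 1.21 and no longer called (adjusted p = 0.0595, 0.0577 and 0.0508). Ccne1 and Ccna2 were lower as 12 of these 14 genes were, whereas in TPM Ccna2 was not called and 7 of 14 were lower. Of 12 genes of mitosis none was higher, 3 were lower and 9 were not called, with a median of -0.26, and in TPM 1 was higher and 1 lower, with a median of 0.13, below that of all tested genes on both scales. After quantile normalization 1 was higher and 4 lower. When ESC replicate 3 was left out, where 87.9% of all genes were called, 1 was higher and 7 lower. Aurka (-0.94) and Mad2l1 (-0.72) had the largest falls of this list, each smaller than that of Ccnb1 (-1.22).

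Of 16 genes of p53 and its targets 14 were tested. Of these 2 were higher and 8 lower, beside 36.9% and 33.3% of all tested genes, with a median of -0.39 beside 0.02. In TPM 2 were higher and 3 lower, with a median of -0.01 beside 0.45, and the share of lower calls was close to the background. By RPKM without NPC replicate 1, 2 or 3, the list had 2 higher and 5 lower each time. Trp53, which activates Cdkn1a, fell from 36.2 ± 2.19 to 19.7 ± 0.596 RPKM (-0.84, limma, adjusted p = 0.000294), and Mdm2, its target and ligase, from 6.03 ± 1.31 to 4.04 ± 0.147 (-0.46, adjusted p = 0.0285). The call of Mdm2 was kept without ESC replicate 3 (adjusted p = 2.3e-05) and lost when any other sample was left out (-0.35 to -0.48, adjusted p = 0.0716 to 0.093). Bax (-1.61) and Sesn2 (-1.58) were lower as Cdkn1a was, and Plk2 (1.91) and Gadd45a (1.17) were higher. The p53 targets thus moved in both directions. Of 12 factors known to act on the Cdkn2a locus, 6 were higher and 4 lower, with a median of 0.16. In TPM these were 6 and 2, with a median of 0.63 beside 0.45 for all tested genes, and without ESC replicate 3 they were 6 and 5. Id1 (3.64) and Cbx2 (1.79) had the largest rises and Cbx7 (-2.37) and Eed (-1.56) the largest falls. Without ESC replicate 3, 2 genes of p53 and its targets were higher and 10 lower, 1 of replication and proliferation higher and 13 lower, and 2 of turnover higher and 6 lower, in a fit that called 87.9% of all genes against 70.2% with it. Of the genes counted in these lists, Cdkn1c, E2f3, E2f6, Tfdp2, Skp2 and Cbx8 reached the filter level in each NPC sample but not in each ESC sample. For Cbx7 and Fbxo31 it was the reverse. The filter thus favoured their directions. It did not fix that of Skp2, whose mean in ESCs was above the filter level. No gene of these lists was called in opposite directions under the settings tried.

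The genes closest in pattern to the members with the largest rise and the largest fall were found by the distance of log2(RPKM + 1), centred on each gene's mean, over the 6 samples. Closest to Ccnd2 were Fzd1 (distance 0.16), Dbn1 (0.18) and Flnc (0.21), with 18.4, 19.0 and 20.0 RPKM in NPCs and at most 0.111 in ESCs. Closest to Cdkn1a were Nars (0.13), Tubb4b (0.14) and Socs3 (0.14), with differences of -1.74, -1.75 and -1.67. A distance over samples of 2 cell types ranks genes mainly by the size of their difference.

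The positions of the members were set against the NADs, of which the lists hold 1769 in ESCs and 1447 in NPCs, each from 2 experiments and with 1 score per NAD. The NADs were mapped in cells with an H2B-Dam-NoLS or, as control, an H2B-Dam transgene, treated with doxycycline at 100 ng/ml and Shield1 at 1 µM for 15 h, which the RNAseq samples were not. In ESCs 2 of 10 members overlapped a NAD (27.1% of 21445 placed genes of the RNAseq tables did), and in NPCs 1 of 10 (21.6%). Cdkn2a lay wholly within an ESC NAD at chr4:87702693-89500196, with a score of 0.0278 beside a median of 0.0256 over the list. In NPCs it lay in no NAD, and the nearest, at chr4:87799543-88999880, ended 275 kb away. Its RNA was lower in NPCs, where it was outside NADs, than in ESCs. Ccne2 overlapped the border of a NAD in both cell types, with 5054 bases or 37.6% of the gene, at chr4:11199726-11599897 in ESCs (score 0.0244) and chr4:11199726-11300288 in NPCs (score 0.0718). By transcription start, or with at least 50% of the gene inside, only Cdkn2a remained in ESCs (23.6% and 24.5% of all placed genes) and no member in NPCs (18.9% and 19.5%). Of the others, Ccnb1 was nearest to a NAD in ESCs, at 78.8 kb, and Ccnd1 and Ccne1 were at least 1630 kb from any NAD in both cell types. The scores have no replicate values in the lists, and no difference between cell types was tested.

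Promoter sequences, 250 bases before to 50 after a start, were read from RefSeq (GRCm38.p6) and matched 6 of 10 members with 9 promoters; Ccnd1, Ccnd2, Ccne2 and Ccna2 had none in the table. They were searched on both strands for E2F motifs (TTTCCCGC, TTTGGCGC, TTTCGCGC or TTTGCCGC), the core of the cell cycle homology region (TTTGAA) and the CCAAT box (CCAAT). Of 32851 promoters, 2.26% hold an E2F motif as spelled, 17.9% the homology region core and 37.4% a CCAAT box. Ccnb1 had a CCAAT box at 99 and 67 bases before the start, Cdkn1b had 3 of which 1 lies after the start on the other strand, and the promoter of Ccnd3 at chr17:47593217-47593516 had 1. No such letters were in the promoters of Ccne1 and Cdkn1a, and the core of the homology region was in none of the 9. Shown are the promoters of Cdkn2a, which lay in a NAD in ESCs alone, and those of Ccnb1 and Cdkn1b, which moved in opposite directions, each 5′ to 3′ on the strand of the gene and with matched motifs in capitals (ATTGG is a CCAAT box on the other strand). The upstream one of Cdkn2a (chr4:89294570-89294869, minus strand) belongs to ARF and holds TTTCCCGC, the downstream one (chr4:89282143-89282442, minus strand) belongs to INK4a and holds ATTGG, and those of Ccnb1 (chr13:100786437-100786736, minus strand) and Cdkn1b (chr6:134920151-134920450, plus strand) are shown for their CCAAT boxes. A match describes the letters and does not show that a factor binds there.
Cdkn2a upstream: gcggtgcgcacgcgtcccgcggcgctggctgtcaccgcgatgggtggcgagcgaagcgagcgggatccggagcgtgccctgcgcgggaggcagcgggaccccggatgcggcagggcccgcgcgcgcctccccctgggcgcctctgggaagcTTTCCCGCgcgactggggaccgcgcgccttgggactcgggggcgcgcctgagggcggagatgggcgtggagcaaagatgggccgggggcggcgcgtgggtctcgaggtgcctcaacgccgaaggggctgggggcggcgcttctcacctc
Cdkn2a downstream: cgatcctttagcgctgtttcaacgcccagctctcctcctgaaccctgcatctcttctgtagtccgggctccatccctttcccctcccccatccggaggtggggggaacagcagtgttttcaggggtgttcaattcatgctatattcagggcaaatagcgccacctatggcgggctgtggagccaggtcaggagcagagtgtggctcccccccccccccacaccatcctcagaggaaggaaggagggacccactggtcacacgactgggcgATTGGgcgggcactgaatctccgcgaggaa
Ccnb1: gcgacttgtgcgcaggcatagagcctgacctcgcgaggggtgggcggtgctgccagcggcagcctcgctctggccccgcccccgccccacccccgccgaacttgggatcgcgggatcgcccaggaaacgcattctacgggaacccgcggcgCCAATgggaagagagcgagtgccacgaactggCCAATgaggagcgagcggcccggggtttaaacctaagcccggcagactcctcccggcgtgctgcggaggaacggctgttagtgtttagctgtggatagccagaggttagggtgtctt
Cdkn1b: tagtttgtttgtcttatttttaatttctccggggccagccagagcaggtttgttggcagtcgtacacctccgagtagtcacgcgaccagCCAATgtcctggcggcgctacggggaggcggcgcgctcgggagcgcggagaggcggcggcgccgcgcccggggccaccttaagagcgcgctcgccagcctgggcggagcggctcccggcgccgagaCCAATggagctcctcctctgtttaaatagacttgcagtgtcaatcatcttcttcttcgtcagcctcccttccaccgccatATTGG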

How the data were processed

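The authors deposited RPKM, reads per kilobase scaled to library depth, per gene for 6 RNAseq samples, after removing rRNA reads with SortMeRNA, trimming with Trimmomatic and aligning to mm10 with STAR. The deposited NAD lists give 1 score per NAD. The paper describes exon coverage of each gene from a custom pipeline, whereas the deposited values gave whole reads with introns in the length. It names a stranded library kit, and the sample labels a non-stranded one. Which annotation they counted on, whether by strand, and what was done with multi-mapping reads is not stated in the sources used.

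Values were used as log2(RPKM + 1) for genes with at least 1 RPKM in at least 3 samples, and fitted with limma (lmFit and eBayes with trend) and Benjamini-Hochberg adjustment over all tested genes. Reads were recovered from the smallest step of each sample. Family shares were tested by permuting samples in every way (exact, two-sided). Positions came from GENCODE M21 and RefSeq GRCm38.p6.

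The genes named by rule are the 10 members; 16 pathway genes and 7 markers listed by name; in each other pathway list up to 2 called genes with the largest rise and up to 2 with the largest fall; and the 3 genes closest in pattern to the members with the largest called rise and fall. Other genes are named for being most abundant, at 0, carried through the filter by a single group, overlapping a member or close in size to a gene named by rule. They were chosen after their values were seen. The members and lists were chosen with earlier results of these data known. Values per kilobase of exon or of the principal transcript and the fit of reads were chosen after seeing the data.

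The analysis ran in R 4.3.3 with limma 3.58.1, and in Python 3.11.15 with scipy 1.17.1, pandas 2.3.3, matplotlib 3.10.9 and numpy 2.4.6.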

Additional observations from a re-analysis of the deposited data

How the results depend on the processing

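Of the alternatives tried for gene counts, shares and NAD overlaps, 187 kept the count within 1.5 times or the direction and side of the threshold, and 24 did not. The 187 include the family shares, whose p could not fall under 0.05 with so few samples, so only their direction could change. For the differences of single members 158 kept direction and call, 7 lost a call, 3 gained one and 2 turned direction. Of the percent shares 26 moved by more than 1 SD of the replicates and 4 did not, and 16 ranks changed per kilobase of exon and 4 did not. The calls and directions of Ccnd2, Ccne1, Ccnb1, Cdkn1a and Cdkn2a were the same under the 17 alternatives run for each.

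Without a filter, 11454 genes were called (7245 higher and 4209 lower in NPCs), since more genes were tested. In TPM, 1585 genes and 22 pathway genes were lower. Per kilobase of exon 4803 genes were higher, and on the recovered reads 10201 were called, 6356 of them higher; both were chosen after seeing the data. With a difference of at least 1 also required, 2246 genes (1301 higher, 945 lower), 5 members (1 higher) and 23 pathway genes (9 higher, 14 lower) were left. After median centring 1 of 10 members was higher, beside 2582 of 7835 genes, and when each replicate was left out in turn 1 to 3 were, beside 2517 to 3437 genes. Ccne2 turned to -0.08 after median centring and -0.18 after quantile normalization; the cause was not tested. By transcription start or at least 50% of the gene body, 1 member lay in ESC NADs and 0 in NPC NADs.

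With a replicate block 5214 genes, 8 members and 56 pathway genes were called. Correlations of residuals between ESC and NPC samples of the same number were 0.114, -0.083 and 0.032, beside -0.0895 to 0.0893 for other pairs, so the numbers were not read as pairs.

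In ESCs Ccnd2 rests on 43 to 151 reads, the fewest in replicate 3, and what set that library apart was not tested.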
